A study of Danio rerio with 12 samples.

Results

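The rows described here are 7 nuclear rows of energy metabolism or next to it, out of the 400 rows that held values in a table of 32520 zebrafish genes. They were chosen by name or by position. Of the 7, 3 are respiratory chain genes, namely ndufb2 and ndufa3, which encode accessory subunits of complex I, and atp5f1e, which encodes the epsilon subunit of the ATP synthase. The other 4 lie near the 3' end of an energy gene on the opposite strand. They are hgd (beside ndufb4), ENSDARG00000019081 (beside pkma), zgc:194312 (beside acadvl) and AL831745.1 (beside echs1).

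Heart muscle draws most of its ATP from mitochondria. The respiratory chain passes electrons from NADH through complex I and onward to oxygen, and the proton gradient this builds drives the ATP synthase. Most subunits of these complexes are encoded in the nucleus, and fuel reaches them through glycolysis, fatty acid oxidation and the breakdown of amino acids.

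The libraries were made from cardiac tissue of zebrafish that carry Tg(myl7:ATF3), in which the myl7 promoter drives the stress-induced transcription factor ATF3 in heart muscle cells, and of wild-type siblings of the same age. Both genotypes were sampled at the ages of 4 and 12 months after fertilization (mpf), and each of the 4 groups had 3 biological replicates, 12 libraries in all. The series asks about early and progressive effects of ATF3 overexpression. No treatment is named in the labels, and neither the number of hearts behind a library nor the number of founder lines is given in the sources used here. The p-values measure the spread between these replicates.

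Values were deposited as FPKM, a level per kilobase of transcript, and whole reads were recovered from them to show the depth. QuantSeq reads fall near the 3' end of a transcript, so division by length lowers the FPKM of long rows, and levels of different rows are set beside each other only on the FPKM scale. The reads in the 400 rows numbered 589598 to 1092280 per library at 4 mpf and 133852 to 286257 at 12 mpf. Cytosolic rRNA held 82.7% to 90.4% of them at 4 mpf and 18.0% to 41.3% at 12 mpf. The row mt-nd6, a mitochondrial complex I gene, alone held 3.5% to 10.5% of the reads at 4 mpf and 37.1% to 55.1% at 12 mpf. Of the 400 rows, 46 to 193 were listed at 0 in a library of 4 mpf and 3 to 9 in a library of 12 mpf. The libraries of the 2 ages therefore stand apart, and age and library composition cannot be told apart. The heart muscle list, with myl7 among its 16 genes, had 0 rows with values, so the labelled tissue could not be checked against its markers, and atf3 was not analysed here.

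The 3 respiratory chain rows held few reads, and no opposite 3' end lay inside any of them. Their coordinates are those of the deposited table, for which the submitters' processing notes name the build GRCz11. The row of ndufb2 lies on chromosome 4 from 22480169 to 22483131 on the plus strand, and the 3' end of kdm7aa, a histone demethylase gene on the minus strand, lies 1699 bases beyond its own 3' end. The row of ndufa3 lies on chromosome 16 from 5717760 to 5721386 on the minus strand, with no other gene within 5000 bases. The row of atp5f1e lies on chromosome 6 from 49893488 to 49902140 on the minus strand. Its first 676 bases overlap the start of chmp4ba, a gene of the ESCRT membrane-cutting machinery, whose 3' end lies 18180 bases away from the row.

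The 4 rows beside energy genes differ in what they contain. The row of hgd, which encodes homogentisate dioxygenase of tyrosine breakdown, lies on chromosome 24 from 23959107 to 23975132 on the plus strand. It shares 4077 bases with ndufb4, the gene of another complex I subunit, and contains its 3' end. A further plus-strand row, CT574587.1, overlaps hgd by 1349 bases. The row ENSDARG00000019081 lies on chromosome 18 from 951092 to 968706 on the minus strand. Its name is blank in the deposited table and DHDH in the gene name table. It meets pkma, a pyruvate kinase gene of glycolysis, tail to tail over 479 bases, and contains its 3' end.

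In the other 2 rows the 3' end of the energy gene lies outside the row, and that of another gene lies inside. The row zgc:194312 lies on chromosome 7 from 20334345 to 20379424 on the minus strand. The 3' end of acadvl, which encodes the very long chain acyl-CoA dehydrogenase of fatty acid oxidation, lies 821 bases beyond it, while ponzr1 lies wholly inside it over 25838 bases. The antisense row AL831745.1, named si:ch211-217g15.3 in the gene name table, lies on chromosome 13 from 24585224 to 24588220 on the minus strand. The 3' end of echs1, which encodes an enoyl-CoA hydratase of fatty acid oxidation, lies 2988 bases beyond it. The 3' end of fuom, the fucose mutarotase gene, lies inside it, with 1260 bases shared. None of these 6 opposite genes had values, so ndufb4, pkma, acadvl, echs1, ponzr1 and fuom themselves were not analysed here. Why only 400 of the 32520 rows held values was not tested, and this limits what can be said of all 7 rows. Which strand was counted is not stated in the sources used here, and reads of a row and of its opposite partner cannot be told apart. In bulk tissue, fewer cells of a type and less RNA per cell cannot be told apart either.

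**Figure D1:**
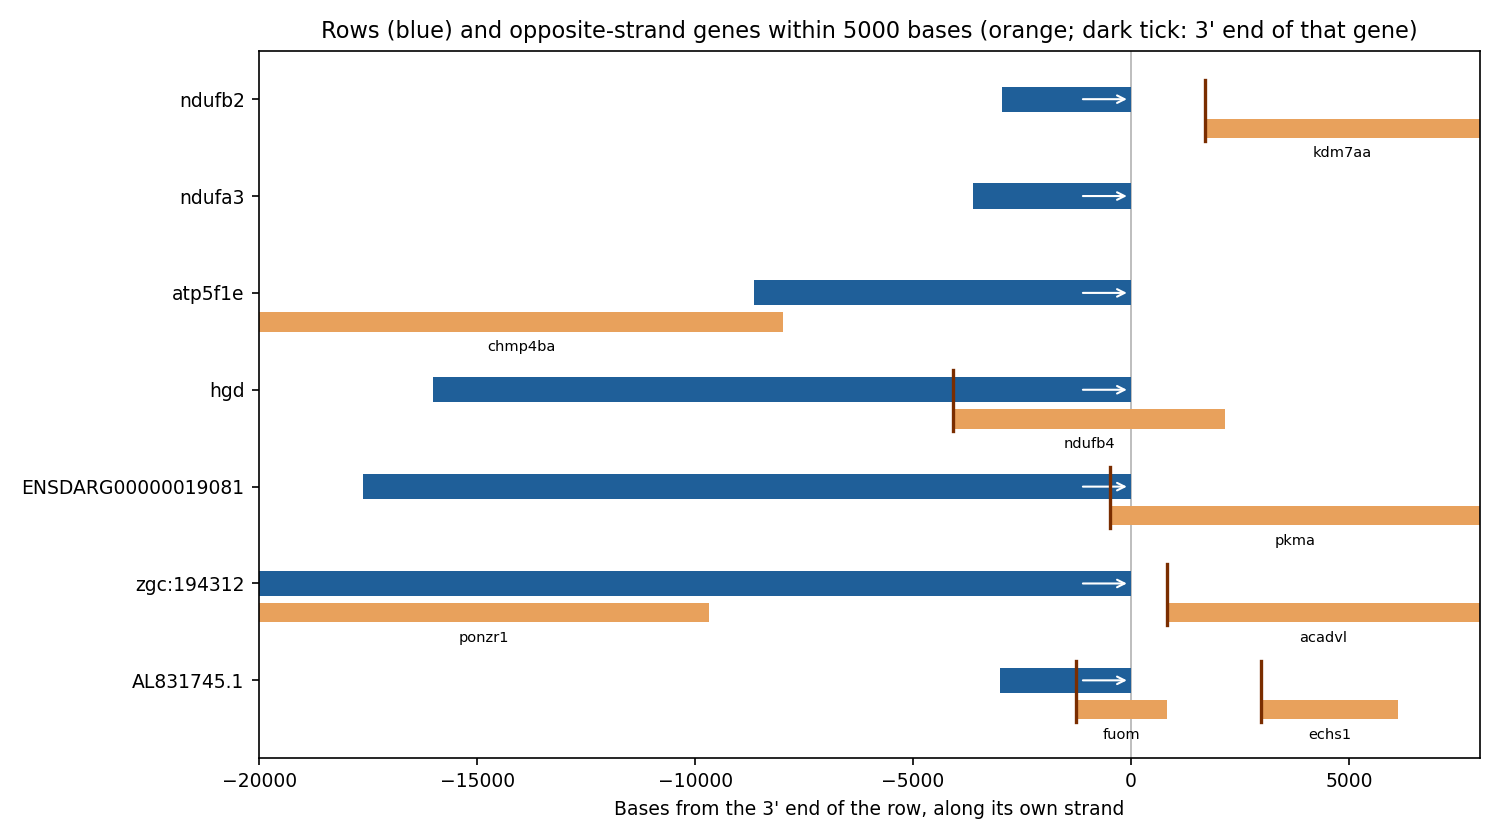
Position of each row (blue, arrow toward its 3' end) and of opposite-strand genes that overlap it or lie within 5000 bases (orange), in bases from the row's 3' end. Drawing stops 20000 bases before that end. A dark tick marks the 3' end of an opposite gene. Ticks lie inside hgd, ENSDARG00000019081 and AL831745.1 (fuom). Others lie 1699 bases beyond ndufb2, 821 bases beyond zgc:194312 (acadvl) and 2988 bases beyond AL831745.1 (echs1). The ticks of ponzr1 and chmp4ba are off the drawing.

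The depth differed widely between the rows. The rows that contain the 3' end of ndufb4 and of pkma held the most, with 1107 to 4049 reads per library for hgd and 738 to 2986 for ENSDARG00000019081. Then came zgc:194312, with 100 to 682 reads. The other 4 rows were listed at 0 in at least 1 library and reached 256 reads for ndufa3, 120 for ndufb2, 115 for AL831745.1 and 85 for atp5f1e. AL831745.1, which also contains an opposite 3' end, was among the lowest. In all, 7 of the 84 values were 0, each in a library of 4 mpf. Wild-type replicate 1 of that age held 4 of the 7 zeros, and 48.2% of all 400 rows were at 0 there.

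At 12 mpf, where no value was 0, the rows of wild-type hearts can be ordered by mean FPKM. ENSDARG00000019081 stood highest at 1014 ± 294 FPKM, followed by hgd at 587 ± 55.5 and zgc:194312 at 479 ± 203 (SD, n = 3). The libraries of zgc:194312, at 283 to 688 FPKM, overlapped those of both rows above it. Then came ndufa3 at 184 ± 53.7, ndufb2 at 73.2 ± 15.5 and atp5f1e at 47.0 ± 22.5 FPKM, of which the last 2 overlapped. AL831745.1 was lowest at 8.41 ± 1.03 FPKM. In transgenic hearts the means were 1072 ± 181 for ENSDARG00000019081, 444 ± 81.3 for hgd, 268 ± 18.9 for zgc:194312 and 163 ± 53.2 for ndufb2. They were 144 ± 59.5 for ndufa3, 27.5 ± 13.0 for atp5f1e and 13.4 ± 1.93 for AL831745.1. There ndufb2 stood above ndufa3, with overlapping libraries.

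**Figure D2:**
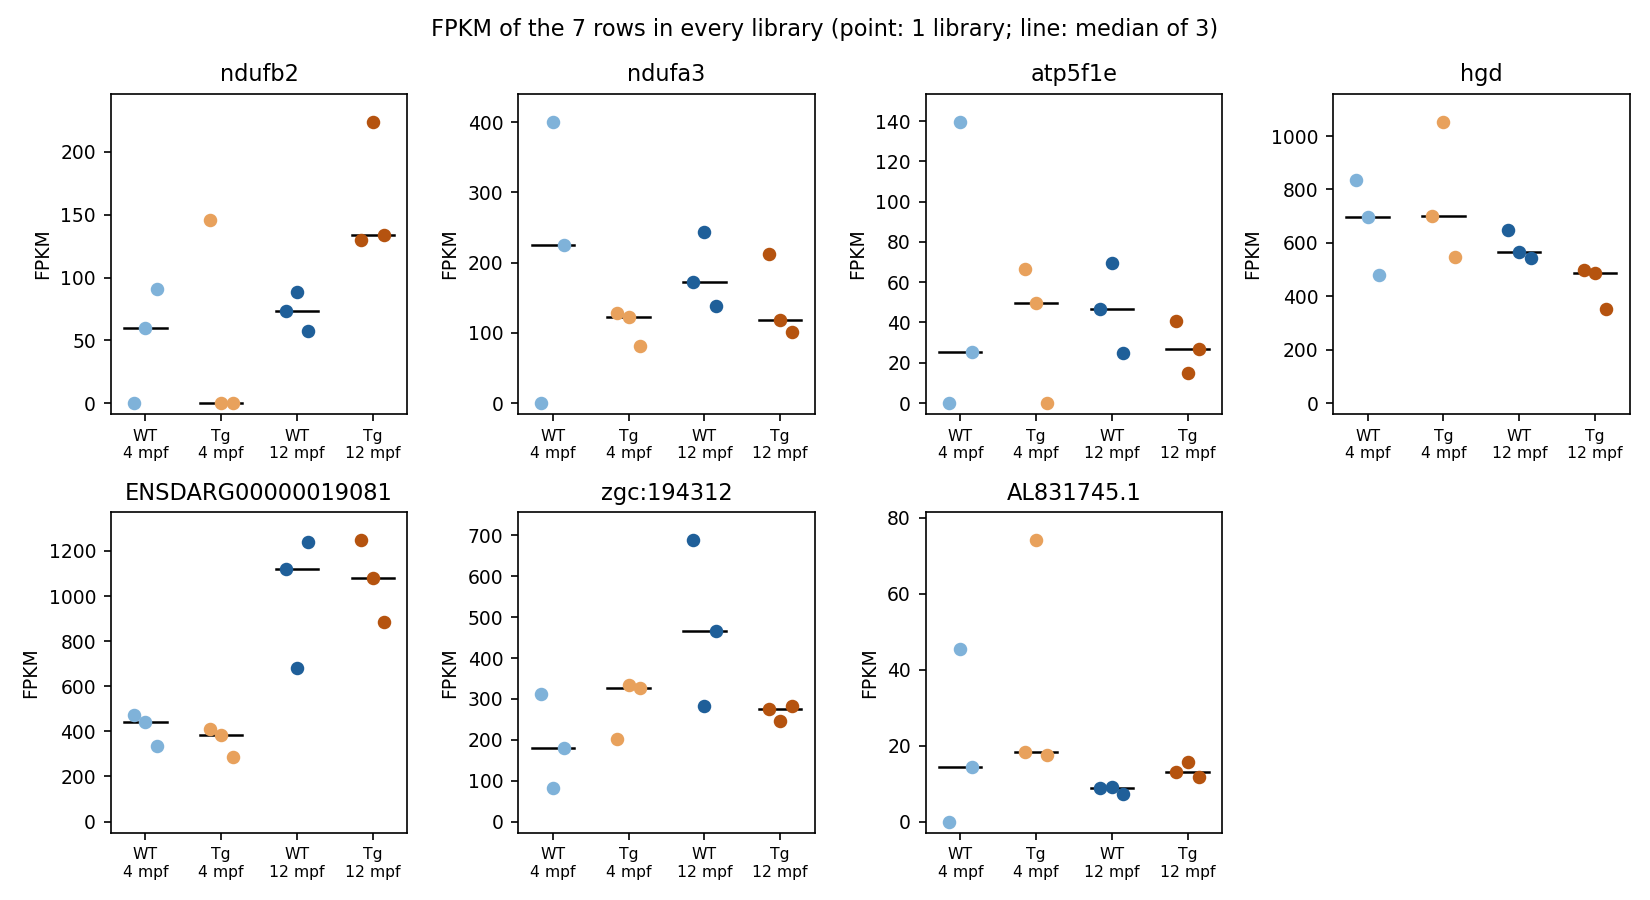
FPKM of each row (own scale on the vertical axis, from 0) in the 12 libraries, by genotype and age. Each point is 1 library and each line the median of 3. The 7 zeros lie in libraries of 4 mpf, and ENSDARG00000019081 is higher at 12 mpf than at 4 mpf in every library.

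The first comparison concerns the early effect of ATF3 and set transgenic against wild-type hearts at 4 mpf. None of the 7 rows differed by limma at an adjusted p under 0.05, while 3.25% of the 400 rows did, and at an unadjusted p under 0.05 the counts were 0 of 7 and 74 of 400. The transgenic and wild-type libraries overlapped in all 7, while they were separate in 12% of the 400 rows. The log2 differences ran from -1.75 for ndufb2 to 1.74 for AL831745.1. Their median was 0.18, against 0.25 over all 400 rows.

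Among the respiratory chain rows at 4 mpf the libraries of a group differed more than the groups. The complex I row ndufb2 measured 0, 59.4 and 91.1 FPKM in the wild-type libraries and 146, 0 and 0 FPKM in the transgenic ones. Both genotypes thus held a library at 0, and the highest value came from a transgenic library. Its log2 difference was -1.75 (SE 1.99, limma, adjusted p = 0.663), and -4.15 to -0.55 with single libraries left out. The complex I row ndufa3 measured 0, 401 and 224 FPKM in the wild-type libraries and 129, 123 and 81.6 FPKM in the transgenic ones. The transgenic values lay between the wild-type ones, for a log2 difference of 1.29 (SE 1.67, limma, adjusted p = 0.729). That sign rested on 1 library, since without wild-type replicate 1 the difference was -1.45. The ATP synthase row atp5f1e measured 0, 139.8 and 25.1 FPKM in the wild-type libraries and 66.7, 49.8 and 0 FPKM in the transgenic ones. The ranges were intermixed, with a log2 difference of -0.03 (SE 1.86, limma, adjusted p = 0.991).

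Of the rows beside energy genes, hgd, ENSDARG00000019081 and zgc:194312 had no value of 0 at 4 mpf. The tyrosine breakdown row hgd measured 836, 696 and 480.2 FPKM in the wild-type libraries and 700.4, 1054 and 547 FPKM in the transgenic ones. Its log2 difference was 0.18, with a 95% interval from -0.55 to 0.91 (limma, adjusted p = 0.832). The row beside pkma, ENSDARG00000019081, measured 471, 442 and 336 FPKM in the wild-type libraries and 409, 384 and 286 FPKM in the transgenic ones. Each genotype spanned much of the range of the other, and the difference of -0.21 had an interval from -0.91 to 0.49 (limma, adjusted p = 0.783). These intervals come from the fit to all 12 libraries, with 1 estimate of the spread for both ages, and leave room for differences of up to 0.91 in size. They were wider in the fit to the 6 libraries of 4 mpf alone. There they ran from -0.77 to 1.12 for hgd and from -1.10 to 0.68 for ENSDARG00000019081 (limma, adjusted p = 0.904 and 0.885). The row zgc:194312 measured 311, 81.8 and 179.8 FPKM in the wild-type libraries and 202, 334 and 327 FPKM in the transgenic ones. Of the transgenic libraries, 2 lay above all wild-type ones and the third between them, with a log2 difference of 0.75 (SE 0.50, limma, adjusted p = 0.499) that ran from 0.24 to 1.2 with single libraries left out. AL831745.1 was at 0, 45.5 and 14.4 FPKM against 18.3, 74.1 and 17.5 FPKM, a log2 difference of 1.74 (SE 1.26, limma, adjusted p = 0.499). Without wild-type replicate 1, in which the row was at 0, that difference was 0.16.

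The comparison at 12 mpf concerns the later effect. None of the 7 rows passed, nor did any of the 400 (0%, limma, 13 rows at an unadjusted p under 0.05, none of them among the 7). This fit uses 1 estimate of the spread for both ages. In the fit to the 6 libraries of 12 mpf alone, 1 of 399 rows passed (limma). There 50 rows had an unadjusted p under 0.05, and among the 7 only ndufb2 did. The libraries of the genotypes did not overlap in 4 of the 7 rows, against 20% of all 400. Of these 4, ndufb2 and AL831745.1 were higher and hgd and zgc:194312 lower in transgenic hearts. The median log2 difference of the 7 was -0.39, against 0.07 over all rows.

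The complex I row ndufb2 measured 73.3, 88.7 and 57.8 FPKM in the wild-type libraries and 130.2, 224 and 134 FPKM in the transgenic ones of 12 mpf. All 3 transgenic libraries lay above the wild-type ones, by a log2 difference of 1.12. In the fit to all 12 libraries its SE was 1.99 (limma, adjusted p = 0.999), and this spread includes the zeros of 4 mpf. In the fit to the 6 libraries of 12 mpf the SE was 0.37 and the 95% interval 0.29 to 1.94, and the row did not pass there either (limma, unadjusted p = 0.0137, adjusted p = 0.223). By p it ranked 22 among the 399 rows tested in that fit.

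The other 2 respiratory chain rows were lower on average in transgenic hearts of 12 mpf, with overlapping libraries. The complex I row ndufa3 measured 172, 243 and 138 FPKM in the wild-type libraries and 212, 119 and 102 FPKM in the transgenic ones. Of the transgenic libraries, 2 lay below every wild-type one and the third between them, with a log2 difference of -0.39 (SE 1.67, limma, adjusted p = 0.999). The ATP synthase row atp5f1e measured 46.6, 69.6 and 24.7 FPKM in the wild-type libraries and 41.0, 14.9 and 26.7 FPKM in the transgenic ones, on 8 to 37 reads. Its log2 difference was -0.74 (SE 1.86, limma, adjusted p = 0.999). In the fit to that age alone the SE was 0.40 for ndufa3 and 0.52 for atp5f1e (limma, adjusted p = 0.661 and 0.613). The differences of the 3 respiratory chain rows thus had no common sign at this age, and none passed.

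The tyrosine breakdown row hgd measured 649.8, 566 and 545 FPKM in the wild-type libraries and 496, 485 and 350.3 FPKM in the transgenic ones of 12 mpf. Every transgenic library lay below every wild-type one, with a log2 difference of -0.42 and an interval from -1.15 to 0.32 (limma, adjusted p = 0.999). Fitted to that age alone, the SE of hgd was 0.30 and the interval -1.09 to 0.26 (limma, adjusted p = 0.621). The row beside acadvl, zgc:194312, measured 688, 283 and 465 FPKM in the wild-type libraries and 275, 246 and 282 FPKM in the transgenic ones. The groups were separated by less than 1 FPKM, between 282 and 283. The log2 difference was -0.75 (SE 0.50, limma, adjusted p = 0.999), or -1.08 to -0.44 with single libraries left out. Fitted to that age alone, the SE of zgc:194312 was 0.38 and the interval -1.60 to 0.11 (limma, unadjusted p = 0.0798, adjusted p = 0.455). AL831745.1 measured 8.91, 9.09 and 7.23 FPKM in the wild-type libraries and 13.0, 15.5 and 11.8 FPKM in the transgenic ones. The groups were separate, on only 6 to 11 reads per wild-type and 13 to 19 per transgenic library, with a log2 difference of 0.61 (SE 1.26, limma, adjusted p = 0.999). In the fit to the 6 libraries of 12 mpf its SE was 0.40 and the interval -0.30 to 1.53 (limma, adjusted p = 0.585). The row beside pkma, ENSDARG00000019081, was at 1120.2, 682 and 1240.4 FPKM against 1248, 1081 and 886 FPKM. These overlapped broadly, with a log2 difference of 0.11 and an interval from -0.59 to 0.81 (limma, adjusted p = 0.999).

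**Figure D3:**
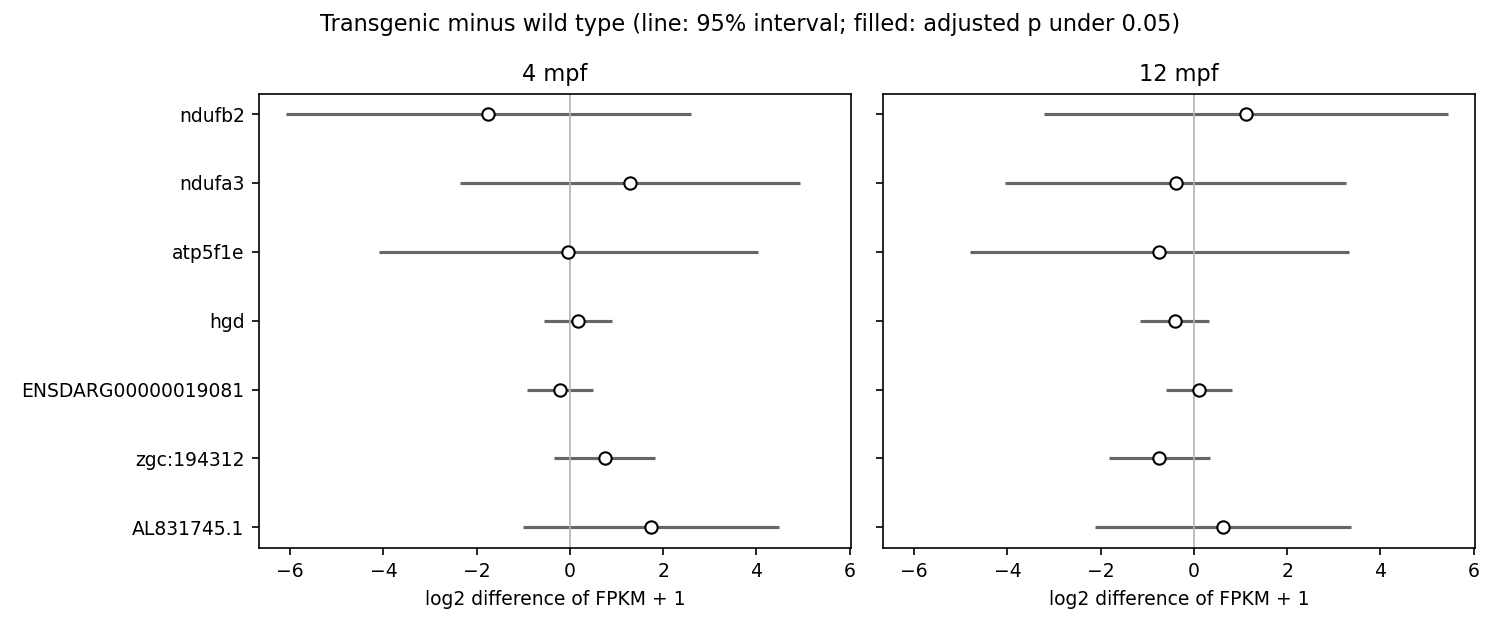
Log2 difference of FPKM + 1, transgenic minus wild type, at 4 mpf (left) and 12 mpf (right), with 95% intervals from the limma fit to 12 libraries. No row passed at either age, and the intervals are widest for ndufb2, atp5f1e and ndufa3, which had values of 0 at 4 mpf.

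Whether the genotype effect differed between the ages was tested directly. No row of the 7 passed, against 0.5% of the 400 (limma, adjusted p from 0.593 to 0.980 in the 7 rows, 0 of them at an unadjusted p under 0.05, against 33 of the 400). The smallest p belonged to zgc:194312, whose difference was 0.75 at 4 mpf and -0.75 at 12 mpf. The change between them was -1.496 on the log2 scale (SE 0.70, limma, unadjusted p = 0.0548, adjusted p = 0.593). For ndufb2 it was 2.87 (SE 2.81, limma, adjusted p = 0.909), and 1.67 to 5.26 with single libraries left out.

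The change from 4 to 12 mpf was largest in relation to its error for the row beside pkma. In transgenic hearts ENSDARG00000019081 rose by 1.57 on the log2 scale (SE 0.32, limma, adjusted p = 0.0297), from 359.9 ± 64.9 FPKM at 4 mpf to 1072 ± 181 FPKM at 12 mpf (SD, n = 3). It was the 1 row of the 7 that passed in that comparison, in which 3.5% of the 400 rows passed. In wild-type hearts the levels were 416 ± 71.2 FPKM at 4 mpf and 1014 ± 294 FPKM at 12 mpf (SD, n = 3), and the log2 difference of 1.25 missed the threshold (SE 0.32, limma, adjusted p = 0.0513). The changes in both genotypes differed by 0.32 (SE 0.45, limma, adjusted p = 0.918). All 6 libraries of 12 mpf, at 682 FPKM or more, lay above all 6 of 4 mpf, at 471 FPKM or less. How many of the 400 rows separated in this way over both genotypes was not counted. Within a genotype, the libraries of both ages were separate in 24.2% of the rows in wild-type and 33.5% in transgenic hearts. The call in transgenic hearts was lost in 6 of 21 alternatives. It was lost with library weights (limma, adjusted p = 0.0598) and without any 1 of 5 of the 6 transgenic libraries, the exception being replicate 1 of 4 mpf (adjusted p up to 0.115). The change itself stayed between 1.42 and 1.70. The median change over all 400 rows, many of them at 0 in libraries of 4 mpf, was 0.64 in transgenic and 1.03 in wild-type hearts. Over the 129 rows above 0 in all 12 libraries it was 0.07 and 0.12. The shares of rRNA and of mt-nd6 and the number of rows at 0 moved with age in the same libraries. The erythroid gene hemgn, the 1 gene of 10 on the erythrocyte list with values, was at 33.8, 20.5 and 45.8 FPKM in transgenic libraries of 4 mpf and lower, at 9.22, 11.7 and 4.82 FPKM, in those of 12 mpf. In wild-type libraries it was at 0, 0 and 6.09 FPKM and then higher, at 7.31, 11.9 and 9.87 FPKM, on at most 14 reads. Both zeros were in replicates 1 and 2 of 4 mpf, in which 193 and 134 of the 400 rows were at 0. The B-cell gene cd22, the 1 of 12 on the leukocyte list, was at 91.0, 70.3 and 177 FPKM in transgenic libraries of 4 mpf and at 17.7, 90.3 and 68.4 FPKM in those of 12 mpf, with overlap. In wild-type libraries cd22 was at 0 in all 3 of 4 mpf. It was at 21.9, 6.76 and 9.85 FPKM in those of 12 mpf, on 6 to 18 reads. The part of these measures in the rise was not tested. The strand counted is not stated for hemgn and cd22 either.

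No other row of the 7 passed with age in either genotype, and in wild-type hearts none did, against 4% of the 400. At an unadjusted p under 0.05 (limma) there were 2 of the 7 in wild-type hearts, against 92 of the 400. In transgenic hearts there were 3 of the 7, against 76 of the 400. Libraries of the 2 ages did not overlap in 1 of the 7 rows in wild-type hearts (24.2% of all rows) and in 3 in transgenic hearts (33.5%). The complex I row ndufb2 had the largest change in transgenic hearts, 4.91 on the log2 scale (SE 1.99, limma, adjusted p = 0.217). Of the transgenic libraries of 4 mpf, 2 were at 0, and the third, at 146 FPKM, lay within the range of 12 mpf. The size depended on the pseudocount, with 7.12 for a pseudocount of 0.1 and 2.75 for one of 10. With library weights (limma, adjusted p = 0.0495) and without transgenic replicate 1 of 4 mpf (adjusted p = 0.0365) it passed. In wild-type hearts its change was 2.05 (SE 1.99, limma, adjusted p = 0.553) and -0.03 without replicate 1 of 4 mpf. For ndufa3 the change in wild-type hearts was 2.01 and for atp5f1e 1.52, and without that library they were -0.74 and -0.46. In transgenic hearts they were 0.33 and 0.81 (limma, adjusted p = 0.942 and 0.869).

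The tyrosine breakdown row hgd had, in transgenic hearts, every library of 12 mpf below every one of 4 mpf. Its log2 change was -0.75 (SE 0.33, limma, unadjusted p = 0.0447, adjusted p = 0.252), and in wild-type hearts it was -0.16 (SE 0.33, limma, adjusted p = 0.788). The row zgc:194312 had a change of 1.43 in wild-type (SE 0.50, limma, unadjusted p = 0.0141, adjusted p = 0.117) and of -0.07 in transgenic hearts (SE 0.50, limma, adjusted p = 0.942). AL831745.1 had changes of 0.07 and -1.06 (SE 1.26, limma, adjusted p = 0.978 and 0.697), the latter from -1.41 to -0.40 with single libraries left out. The genotype and age comparisons share libraries, so their values are not independent of each other.

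**Figure D4:**
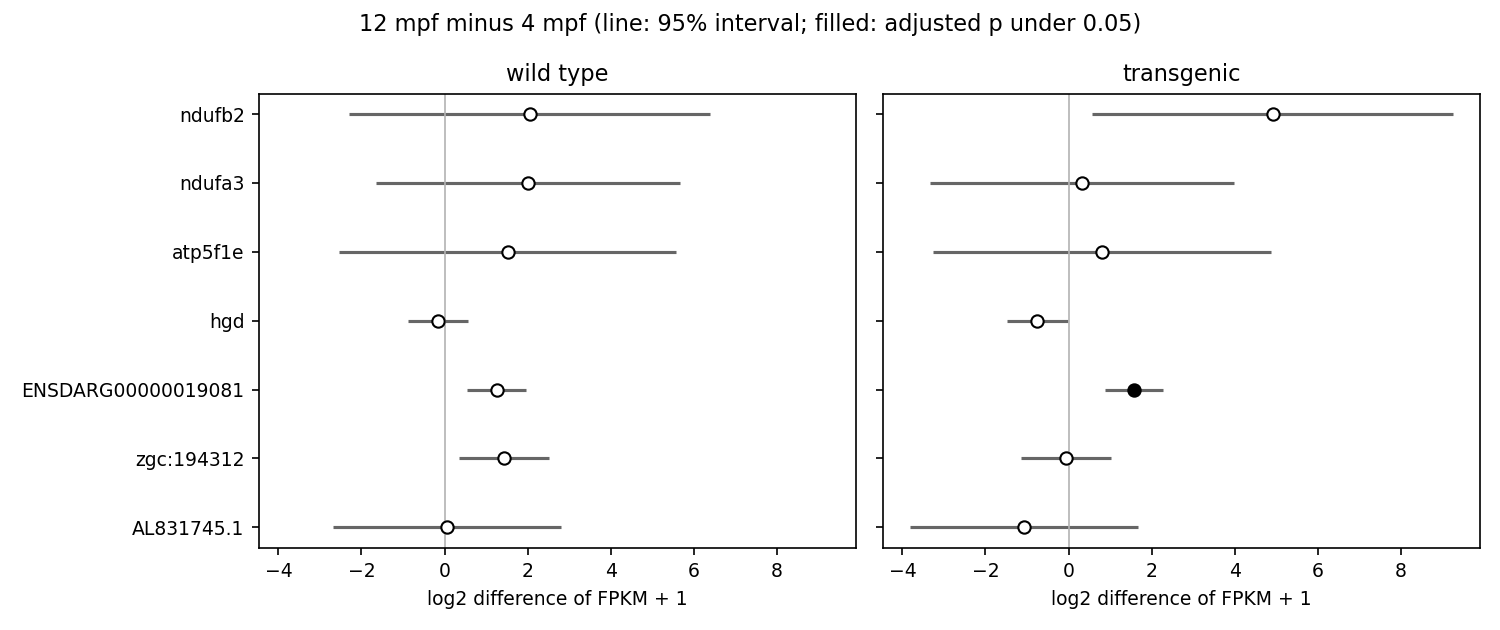
Log2 change of FPKM + 1 from 4 to 12 mpf in wild-type (left) and transgenic hearts (right), with 95% intervals from the limma fit to 12 libraries. The filled point, ENSDARG00000019081 in transgenic hearts at 1.57, is the one that passed, and its change in wild-type hearts was 1.25.

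The variance of the reads between libraries was above their mean in every row and group except AL831745.1 at 12 mpf, and the order of the ages differed from row to row. Counting error alone would make the variance of the reads equal to their mean, after scaling to one library factor. For ndufb2 the variance was 24.8 and 86.3 times the mean in wild-type and transgenic libraries of 4 mpf, and 1.51 and 8.86 times at 12 mpf. For atp5f1e it was 59.0 and 18.4 times at 4 mpf and 4.98 and 3.17 times at 12 mpf. For AL831745.1 it was 36.0 and 38.8 times at 4 mpf and 0.133 and 0.324 times at 12 mpf. For ndufa3 it was 119 and 3.69 times at 4 mpf and 7.62 and 13.2 times at 12 mpf, so that the genotypes went opposite ways. The row beside pkma had a higher ratio at the later age. It went from 36.6 to 203 times in wild-type libraries and from 35.7 to 80.8 times in transgenic ones. The mean reads of this row rose too, from 1250 to 2416 in wild-type libraries and from 1100 to 2824 in transgenic ones. At a constant relative spread above counting error, the ratio grows with the mean. As a percentage of mean FPKM, the SD of this row rose from 17.1% to 29.0% in wild-type hearts. In transgenic hearts it did not rise, with 18.0% at the earlier age and 16.9% at the later one. By counting error alone, a value of 0 allowed up to 3 reads, which for ndufb2 is 4.41 to 6.01 FPKM in the libraries of 4 mpf. The lowest other library of that age was at 59.4 FPKM. As the spread of ndufb2 was far above counting error, this floor cannot show how far apart the hearts were.

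**Figure D5:**
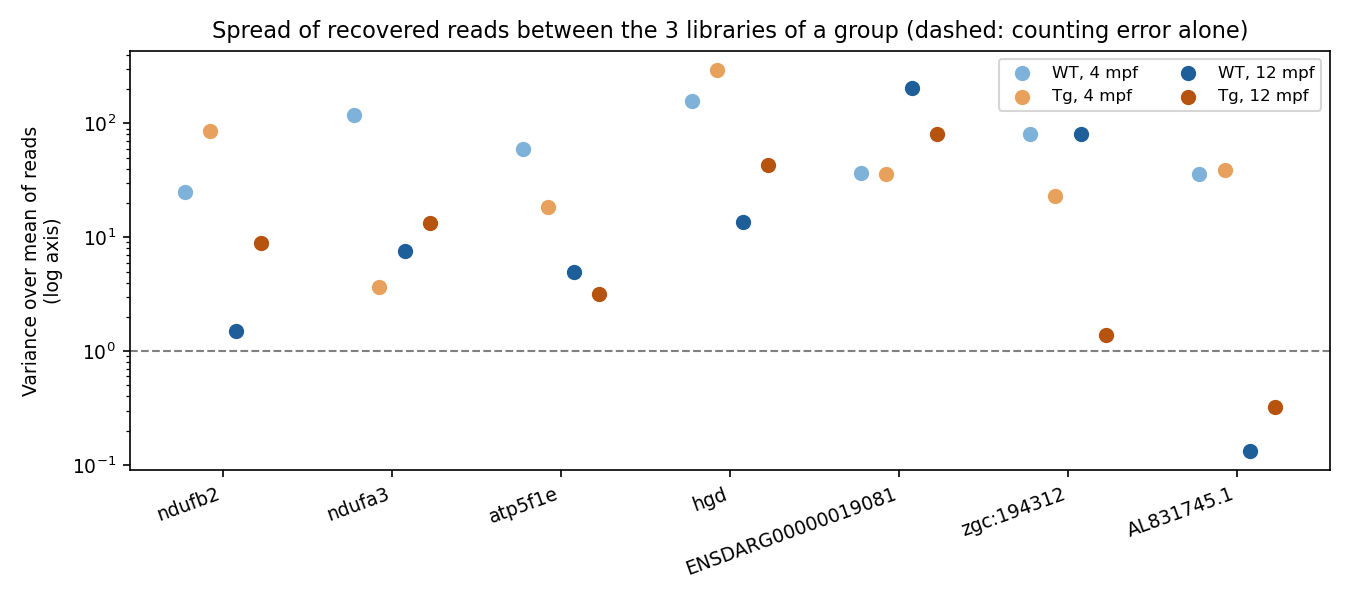
Variance over mean of recovered reads among the 3 libraries of each group (vertical axis, log scale), scaled to a common library factor. The dashed line at 1 is counting error alone. Points of 4 mpf lie above those of 12 mpf for ndufb2, atp5f1e, hgd and AL831745.1, and below them for ENSDARG00000019081.

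The rows with the most similar pattern were found by Pearson's r of log2(FPKM + 1) over the 12 libraries, which share depth and composition, and are given as a description. For ndufb2 they were the antisense row BX663605.1 (r = 0.99) and glb1l, a galactosidase-like gene (r = 0.90). Both were at 0 in the same 3 libraries as ndufb2. For ndufa3 they were si:ch211-175f11.5 (r = 0.94) and ppp4r4 (r = 0.93), both at 0 in the 1 library in which ndufa3 was. For atp5f1e they were rmi2 (r = 0.93), which had no 0, and BX005108.2 (r = 0.92), at 0 in the same 2 libraries.

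For the rows beside energy genes the most similar rows had high levels in several cases. For hgd they were the mitochondrial cytochrome oxidase gene mt-co1 (r = 0.85) and the rRNA row CT583728.3 (r = 0.75). For ENSDARG00000019081 they were the lincRNA row CR383676.3 (r = 0.89) and mt-nd6, a mitochondrial complex I gene (r = 0.88). After the group means were removed those 2 values were 0.33 and 0.40, so this likeness lay mostly between the groups, while that of hgd with mt-co1 was 0.91. For zgc:194312 they were serinc4 (r = 0.82) and atf1, a gene of the CREB family of transcription factors (r = 0.78). Of these, serinc4 was at 0 in 1 library and atf1 in 2, while zgc:194312 had no 0. For AL831745.1 they were BX005340.1 (r = 0.88), at 0 in the 1 library in which AL831745.1 was, and si:ch211-247j9.1 (r = 0.87), which had no 0. Among the 7 rows themselves r ranged from -0.62 for ndufb2 with hgd to 0.78 for ndufa3 with AL831745.1.

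Little else of nuclear energy metabolism could be set beside these rows. Lists of the nuclear genes of the 5 respiratory complexes, the citric acid cycle, fatty acid oxidation, glycolysis and tyrosine breakdown named 172 genes, of which 162 were found in the table. Only 4 of them had values, ndufb2, ndufa3, atp5f1e and hgd, all among the 7 rows. Of the 13 protein genes of the mitochondrial genome 12 had values. None of the 12 passed between genotypes at 4 mpf or at 12 mpf (limma), against 3.25% and 0% of the 400 rows. Their median log2 differences were -0.68 and -0.37. Of the 12, 10 and 11 were lower in transgenic hearts, against 174 and 186 of the 400. At an unadjusted p under 0.05 (limma) there were 3 of the 12 at 4 mpf and 0 at 12 mpf. The 12 rows share libraries, so their signs are not independent. With age in transgenic hearts mt-nd6 rose by 1.62 on the log2 scale (SE 0.40, limma, adjusted p = 0.0468) and the other 11 did not pass. In that comparison 3.5% of the 400 rows passed, and the call of mt-nd6 was not followed through the alternatives. In wild-type hearts the change of mt-nd6 was 1.21 and missed the threshold (SE 0.40, limma, unadjusted p = 0.0104, adjusted p = 0.109). In transgenic hearts the mean of mt-nd6 was 132258 FPKM at 4 mpf and 409136 FPKM at 12 mpf. The next highest mitochondrial row, mt-co1, was at 9059 and 3463 FPKM there. As mt-nd6 held a large share of the reads at 12 mpf, its change and library composition cannot be told apart. The strand counted is not stated for this row either. Whether its reads came from RNA of the opposite strand was not tested, so its level is that of the row. In mammals hgd is expressed mainly in liver and kidney. Of 17 hepatocyte genes only itih2 had values, listed at 0 in 4 of the 12 libraries, all of 4 mpf, and at most 32.6 FPKM elsewhere. None of the 10 kidney tubule genes had values, and the part of such cells in the level of hgd was not tested. Nor can reads of hgd be told apart from those of ndufb4, whose 3' end lies inside the row.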

How the data were processed

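The authors deposited FPKM values per gene, as named in the table, with GRCz11 coordinates. Trim Galore, STAR, RSEM and DESeq2 appear in the submitters' processing notes. The sources used here give neither their versions nor the scaling between libraries or the strand counted. Per the labels' protocols, libraries were made with the strand-specific QuantSeq FWD kit. Of 32520 rows, 400 held values, and 0 columns were left over.

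Whole reads were recovered by solving a factor per library from 12 mitochondrial genes and a length per row, and all 400 rows came out whole within 0.0001 reads. Where several lengths were possible the shortest was taken. Floors of 3 reads cover counting error only, since no molecular identifiers are named.

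Values were transformed as log2(FPKM + 1), which understates changes between low values above 0. The size of a change from or to a value of 0 depends on the added 1. A row had to reach 1 FPKM in 3 or more libraries, and all 400 did. limma 3.58.1 in R 4.3.3 fitted 1 mean per group to all 12 libraries (eBayes with trend and robust). Tests were two-sided and adjusted by Benjamini-Hochberg over 400 rows, with a threshold of 0.05. Python 3.11.15 was used for the rest. The fit was tested on simulated data. These gave each row the same spread in all groups, so they did not test a spread that differs between the ages.

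The 7 rows and the lists were chosen with earlier results of these data known. Named beside the 7 rows were their neighbours, the 2 most similar rows of each and listed genes with values. Hepatocyte, kidney, heart muscle, skeletal muscle, erythrocyte, endothelium, fibroblast and leukocyte lists had 1, 0, 0, 0, 1, 0, 0 and 1 genes with values. No sequences were used here. Alternatives covered the pseudocount, the filter, scaling, library weights, the replicate number, voom on recovered reads, the samples in the fit and each library left out.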

Additional observations from a re-analysis of the deposited data

How the results depend on the processing

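All counts here are by limma, over 400 rows unless a setting left fewer: 356 with the 4 mpf libraries alone, 399 with those of 12 mpf or the transgenic ones alone, 398 with the wild-type ones and 339 with the filter raised to 9 libraries at 1 FPKM or more. The count for genotype at 4 mpf, 13, became 8 with a pseudocount of 10, 21 with voom, 0 with library weights (arrayWeights, 30 at an unadjusted p under 0.05) and 0 with the libraries of 4 mpf alone (29 unadjusted). At 12 mpf, 0 (13 unadjusted) became 2 with arrayWeights (54 unadjusted) and 1 with that age alone (50 unadjusted). The 2 rows of the difference between ages became 0 with a pseudocount of 0.1 (34 unadjusted), 1 with a pseudocount of 10, 0 with median-of-ratios scaling (34 unadjusted) and 1 with voom. The age change in wild type, 16, became 9 with a pseudocount of 10, 1 with arrayWeights, 49 with voom and 28 with the wild-type libraries alone, and in transgenic hearts 14 became 22 with voom. With single libraries left out, the counts ran from 9 to 37 at 4 mpf, 0 to 1 at 12 mpf, 0 to 15 for the difference between ages, 4 to 71 for age in wild type and 0 to 24 for age in transgenic hearts. The maxima of 37, 15 and 71 came without wild-type replicate 3 of 4 mpf, and the 0 in transgenic hearts without replicate 3 of 12 mpf. The causes were not tested. Under the replicate block the difference between ages had 0 rows (25 unadjusted) and age in transgenic hearts 6, and no call among the 7 rows changed. The labels do not say what the replicate numbers stand for. Same-numbered libraries had correlations of their deviations from -0.41 to 0.07, and 1 of 12 libraries was closest to its own number in the other genotype. These deviations are taken from means of 3 libraries, so they cannot show whether a number marks a shared batch.

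Between genotypes and for the difference between ages, 0 of the 7 rows passed under any alternative. ENSDARG00000019081 passed with age in wild-type hearts in 4 of 21 alternatives (limma, adjusted p from 0.0113 to 0.248), with a pseudocount of 0.1, with voom and without transgenic replicate 1 or 3 of 4 mpf. Of 35 comparisons of single rows, 14 changed sign in at least 1 alternative, none of which had passed. For atp5f1e at 4 mpf the difference was 0.0062 with median-of-ratios scaling and 0.046 with voom. For AL831745.1 with age in wild type it was -0.38 with a pseudocount of 10 and -0.52 with arrayWeights. With single libraries left out, the genotype difference at 4 mpf ran from -1.45 to 2.87 for ndufa3, -2.01 to 1.93 for atp5f1e and -0.079 to 0.39 for hgd, and at 12 mpf from -0.15 to 0.28 for ENSDARG00000019081. The age change in wild type ran from -0.028 to 3.23 for ndufb2, -0.74 to 3.59 for ndufa3, -0.46 to 3.11 for atp5f1e, -0.38 to 0.018 for hgd and -1.52 to 1.25 for AL831745.1. In transgenic hearts it ran from -1.15 to 1.89 for atp5f1e and -0.30 to 0.058 for zgc:194312. The difference between ages ran from -3.26 to 1.07 for ndufa3, -2.67 to 1.26 for atp5f1e and -2.32 to 0.45 for AL831745.1. Median-of-ratios scaling moved the median age change of all rows in transgenic hearts from 0.64 to 0.54. The 6 to 37 reads per library behind atp5f1e and AL831745.1 at 12 mpf limit what can be seen there.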
